A study of Mus musculus with 6 samples.

Results

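Carbonic anhydrases were compared between mammary cells of the fetus and basal cells of the adult mammary gland. Of the 20660 genes that array probes could be matched to, 9 are described here, Car2, Car3, Car4, Car6, Car8, Car9, Car12, Car13 and Car14, and 7 further carbonic anhydrase genes of the same array (16 in all) are given after them. The 9 were chosen by name, with values of this same contrast in view, so their differences are a description and carry no test. RNA was taken from 3 samples of E18.5 (embryonic day 18.5) fetal cells sorted as CD31-CD45-Ter119-EpCAM++CD49f+ and from 3 samples of adult basal cells, from mice 8 to 12 weeks old, of the phenotype CD31-CD45-Ter119-BP-1-EpCAM+CD49f+. All were from mammary glands of female C57Bl6J mice with no transgene or treatment named. CD31, CD45, Ter119 and BP-1 mark endothelium, leukocytes, erythroid cells and stroma, which the gates removed (stroma by BP-1 in the adult gate only), while EpCAM and CD49f are epithelial surface proteins. Each sample was hybridized to 1 one-color Agilent array of 55681 non-control probes, and between 76.4% and 83.3% of probes on an array were well above background. The labels call the samples biological replicates but do not say how many animals each pooled.

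The comparison asks how fetal mammary cells differ from the adult cells of the compartment that holds most mammary stem cell activity. Stage, gate and cell population changed together. By the study's methods adult glands were also digested overnight and fetal glands only briefly, so the effects of stage, gate and digestion cannot be told apart. In such bulk samples, fewer cells of a type and less RNA per cell cannot be told apart either. The arrays lay on 2 slides, fetal 1 with basal 1 and basal 3, and fetal 2 and fetal 3 with basal 2. Correlations of array values were between 0.994 and 0.995 among fetal arrays, between 0.981 and 0.990 among basal arrays and between 0.832 and 0.853 across the populations.

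The sort labels were checked against the sort antigens and marker genes. Epcam was called higher in the fetal cells (fetal minus basal 1.88 on the log2 scale, SE 0.13), while Itga6, which encodes CD49f, had overlapping values (0.01). All 9 basal markers were well above background on every array, fetal arrays included, and 7 were called higher in the adult cells, among them the smooth muscle genes Acta2 and Myh11. Myh11 passed the filter on low signal only through the basal arrays, where it is bright, so its call says nothing further. Krt14 (-1.20) and Trp63 (-0.08) had overlapping values and were not called. The basal list summed to a signal of 76828, 68621 and 59138 in the fetal and 1087041, 1035672 and 1042058 in the adult samples. Of 10 luminal markers, 5 (Elf5, Kit, Prom1, Pgr and Foxa1) were called higher in the fetal cells. Elf5 passed the filter on low signal only through the fetal arrays, so its call says nothing further. Krt19 (fetal minus basal -1.22 on the log2 scale) and Prlr (-0.35) had higher values in the adult cells, without overlap, and were not called. Esr1 (-1.06) also had higher adult values without overlap on its brightest probe, which was too dim to be tested. A dimmer Esr1 probe was tested and not called, and its values are not reported here. The summed luminal signal was 185501, 188538 and 147453 in the fetal and 118086, 109424 and 110610 in the adult samples, with Krt18 the brightest gene. A gene is said to be called where limma gave an adjusted p (Holm, over all 20448 tested probes) no higher than 0.05 and the change was at least 2-fold. By this rule 11.1% of all tested probes were called, 5.18% as higher in basal and 5.92% as higher in fetal cells. With Benjamini-Hochberg in place of Holm adjustment, 7 of the 10 luminal markers were called, beside 30.0% of all tested probes. Krt19 and the tested Esr1 probe were among the 7.

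Carbonic anhydrases are zinc enzymes that turn carbon dioxide and water into bicarbonate and a proton, and so set pH inside and outside cells together with transporters that move bicarbonate, protons and lactate. Family members differ mainly in where they work: in the cytosol, anchored to the outer face of the membrane, secreted, or in mitochondria, and some have lost the catalytic site. In secretory epithelia they serve fluid and ion transport, and the membrane-bound Car9 is widely used as a marker of low oxygen, because the hypoxia-inducible factors (HIF) drive its gene through a site close to its start.

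Across the 9 genes, 5 were brighter in fetal cells (Car2, Car3, Car8, Car12 and Car13) and 4 in adult basal cells (Car4, Car6, Car9 and Car14), each by its brightest tested probe. The genes had 11 probes, of which 10 passed the filter on low signal and 8 stood well above background throughout the 6 arrays. By the same rule as for all probes, and as a description only, 2 of the 9 genes were called, Car6 and Car9, both higher in adult basal cells, beside 11.1% of all tested probes (5.18% as higher in basal cells and 5.92% as higher in fetal cells). Car6 passed the filter on low signal only through the basal arrays and Car8 only through the fetal arrays, where each is bright, so a call of either says nothing further. With Benjamini-Hochberg in place of Holm adjustment, 5 of the 9 genes were called higher in fetal and 2 in basal cells, where 30.0% of all tested probes were called, 3267 as higher in fetal and 2866 as higher in basal cells. Without adjustment, 64.7% of all tested probes had a p under 0.05, and these shares are the background for the counts by either rule given for gene lists below. The 3 fetal and the 3 basal values did not overlap for 8 of the 9 genes, against 69.0% of all tested probes. An exact permutation test of 1 gene, with so few arrays in each group, has 0.1 as its smallest p. The median difference, fetal minus basal on the log2 scale, was 1.14 over the 9 genes and -0.03 over all probes. Levels below are quantile-normalized log2 signals of a probe and are not set against those of other probes, since brightness differs from probe to probe.

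**Figure D1:**
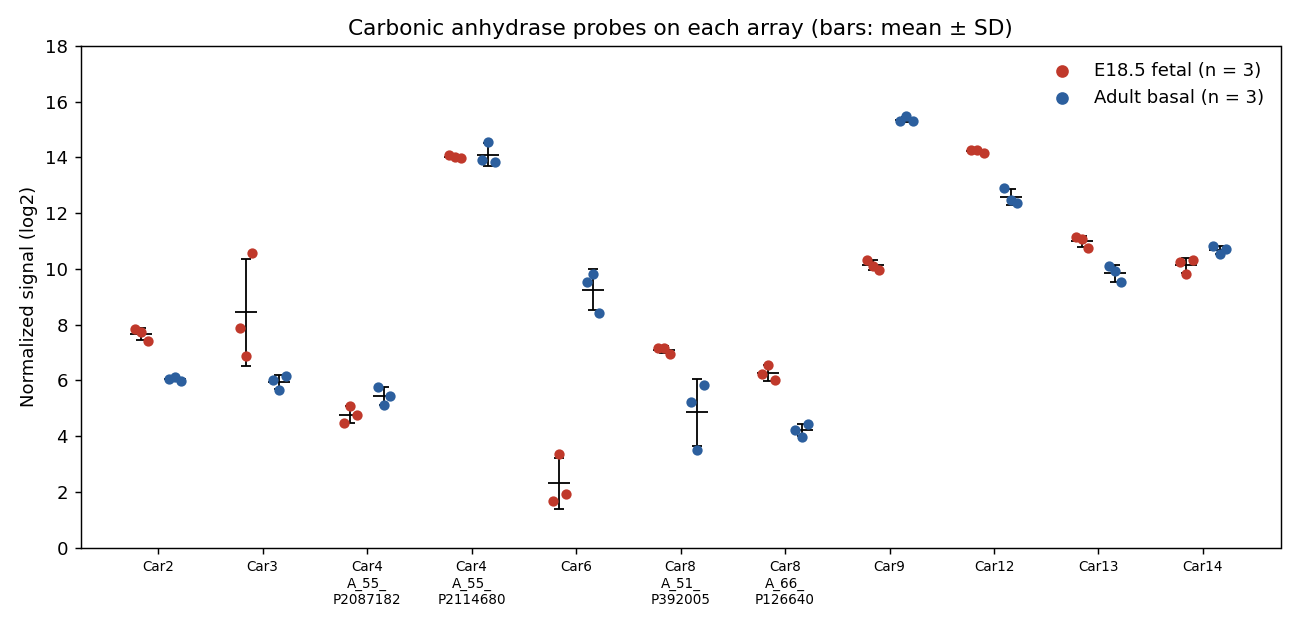
Normalized log2 signal (vertical axis) of each probe of the 9 carbonic anhydrase genes (horizontal axis) on the 3 E18.5 fetal (red) and 3 adult basal (blue) arrays, with the mean and SD of each group as bars. Car9 lies near 10 on the fetal and above 15 on the basal arrays, Car12 and Car13 are higher on all fetal arrays, and 1 fetal value of Car3 stands above the other 2.

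Among the membrane-bound enzymes were both the difference with the smallest error (Car9) and the smallest difference (Car4). Their catalytic domains face the outside of the cell, with Car9, Car12 and Car14 held by a membrane-spanning segment and Car4 by a lipid anchor. For Car9 (probe A_55_P2092750, gene on chromosome 4), signal was 10.32, 10.10 and 9.98 in fetal cells and 15.32, 15.47 and 15.29 in basal cells. All basal arrays were far above all fetal arrays, and every array was well above background. The means were 10.13 ± 0.17 (SD, n = 3) and 15.36 ± 0.10 (SD, n = 3), a difference of -5.23 (SE 0.12), or 37.5-fold higher in basal cells. Within the first slide the difference was -4.98 and within the second -5.43. Car9 met the call rule in each of the 17 other ways of processing the arrays that were tried, with differences between -5.33 and -5.13.

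Car12, another membrane enzyme of secretory epithelia, went the other way. Its probe (A_55_P2019312, gene on chromosome 9) read 14.26, 14.26 and 14.16 in fetal and 12.91, 12.46 and 12.37 in basal samples. The groups were apart, and the spread was narrow in the fetal cells. The means of 14.23 ± 0.06 and 12.58 ± 0.29 (SD, n = 3 each) differed by 1.65 (SE 0.16), 3.13-fold, with 1.62 within the first slide and 1.75 within the second. The difference did not meet the call rule, but did so in 4 of the 17 alternatives.

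The sequences before the starts of Car9 and Car12 are shown because these membrane enzymes differed in opposite directions and Car9 is a textbook HIF target. The RefSeq promoter table (GRCm38.p6) matched 5 of the 9 genes, Car4, Car6, Car9, Car12 and Car14, and not Car2, Car3, Car8 and Car13. The 250 bases upstream of each start, on the strand of the gene, were searched on both strands for the letters ACGTG and GCGTG, the core of the HIF binding site. Capitals mark a match, which on the opposite strand reads CACGT or CACGC. Car9 (chr4:43506776-43507025, plus strand) and Car12 (chr9:66713436-66713685, plus strand) read as follows.
Car9: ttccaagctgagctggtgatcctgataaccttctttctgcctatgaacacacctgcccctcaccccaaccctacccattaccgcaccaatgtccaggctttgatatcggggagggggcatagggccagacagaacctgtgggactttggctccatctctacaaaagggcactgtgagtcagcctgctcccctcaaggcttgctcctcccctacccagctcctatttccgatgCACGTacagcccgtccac
Car12: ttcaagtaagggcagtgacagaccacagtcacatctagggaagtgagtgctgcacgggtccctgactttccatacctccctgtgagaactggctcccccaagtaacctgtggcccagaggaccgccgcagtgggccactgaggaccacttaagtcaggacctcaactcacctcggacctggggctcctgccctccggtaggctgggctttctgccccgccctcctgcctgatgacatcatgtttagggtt

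Car9 held 1 match, ACGTG on the opposite strand, whose first base lies 18 bases before the start. Car12 and Car4 held 0. Car14 held 1 match, 7 bases before its start, and Car6 held 2 that overlap each other in a palindrome, at 149 and 148 bases before its start. Of 32851 mouse promoters of the same length, 38.6% held at least 1 of the sequences, 16.6% ACGTG and 28.2% GCGTG. A match is a match of letters and no evidence of binding.

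Car14 (A_51_P175424, chromosome 3), a membrane enzyme like Car12, read 10.26, 9.82 and 10.31 in fetal and 10.80, 10.53 and 10.72 in basal cells. Basal values were slightly higher, with no overlap, and the difference was -0.55 (SE 0.16), 1.47-fold, -0.50 within the first slide and -0.46 within the second. For Car4, the lipid-anchored enzyme of capillaries and many epithelia (chromosome 11), the brighter probe A_55_P2114680 read 14.07, 14.01 and 13.96 in fetal and 13.92, 14.56 and 13.83 in basal cells. The groups overlapped, since basal 2 was the highest and basal 3 the lowest of the 6 arrays. The difference of -0.09 (SE 0.19) was 0.20 within the first slide and -0.57 within the second, and the sign held in 16 of the 17 alternatives. A second Car4 probe, A_55_P2087182, was too dim to be tested, with 4.77 ± 0.31 in fetal and 5.45 ± 0.32 in basal cells (SD, n = 3 each).

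**Figure D2:**
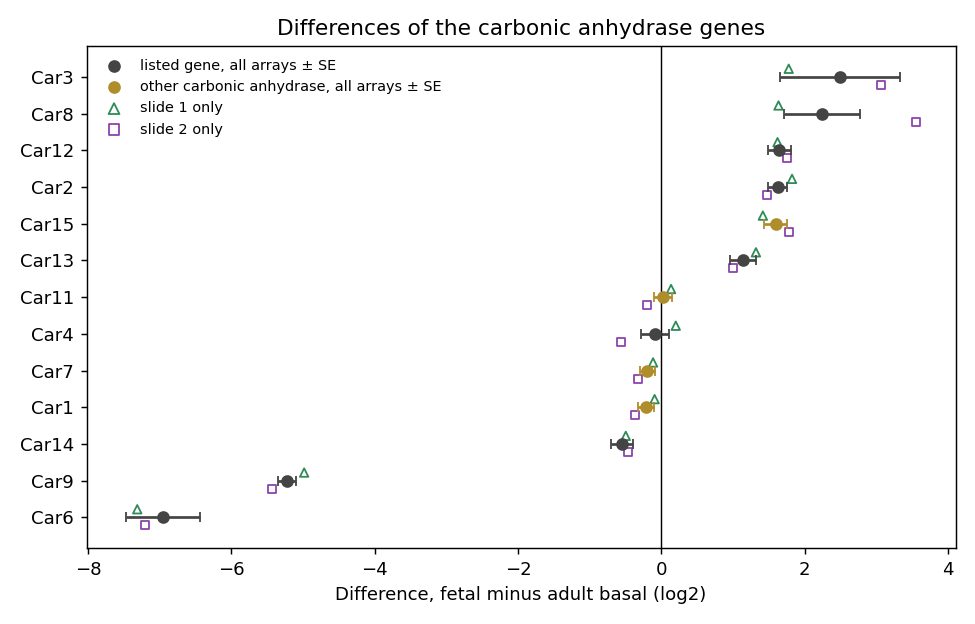
Difference in log2 signal, fetal minus adult basal (horizontal axis), for each carbonic anhydrase gene with a tested probe (vertical axis). Circles and bars are the estimate and its SE over the 6 arrays (dark, the 9 listed genes; ochre, other family members), triangles the difference within slide 1 and squares within slide 2. Car9 and Car6 lie far to the basal side, and Car3 and Car8 have the widest gap between slides.

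The cytosolic enzymes among the 9 genes, Car2, Car3 and Car13, were brighter in the fetal cells. These genes lie with Car1 on chromosome 3. For Car2 (A_51_P455647), the fast enzyme of erythrocytes, osteoclasts and secretory cells, signal was 7.83, 7.75 and 7.42 in fetal and 6.05, 6.11 and 5.97 in basal cells. The groups did not overlap, at 7.67 ± 0.22 and 6.04 ± 0.07 (SD, n = 3 each). The difference was 1.62 (SE 0.13), 3.08-fold, with 1.82 within the first slide and 1.48 within the second. Car13 (A_55_P2156855), a cytosolic enzyme of several tissues, read 11.13, 11.08 and 10.76 in fetal against 10.11, 9.92 and 9.52 in basal cells. Here too no basal array reached a fetal one. The difference was 1.14 (SE 0.18), 2.21-fold, 1.32 within the first slide and 1.00 within the second.

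Car3 had the least steady values of the 9 genes in the fetal cells. It is an enzyme of low catalytic activity, abundant in adipocytes, liver and slow skeletal muscle. Its probe (A_51_P431329) read 7.86, 6.87 and 10.59 on the fetal and 6.02, 5.67 and 6.15 on the basal arrays. Fetal 3 was far above the other fetal arrays, although all fetal values were above all basal ones. The means were 8.44 ± 1.92 and 5.95 ± 0.25 (SD, n = 3 each), where the median SD over all tested probes was 0.12 in fetal and 0.18 in basal cells. The difference was 2.49 (SE 0.84), 5.63-fold. It was 1.41 without fetal replicate 3, 3.27 without fetal replicate 2 and 1.74 under another background correction (normexp). Within the first slide it was 1.78 and within the second, which holds fetal 3, 3.06.

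The genes whose pattern over the 6 arrays was most like that of Car3, by root mean square distance of centred log2 profiles, were Cpa3 (distance 0.43), Adipoq (0.43) and Cidec by its probe A_55_P1969131 (0.59). Cpa3, a mast cell protease, read 5.90, 5.92 and 8.54 in fetal and 3.95, 3.87 and 3.88 in basal cells. Adipoq, the adipocyte hormone adiponectin, read 5.62, 3.99 and 8.17 against 3.31, 4.11 and 3.50, and was well above background on 2 fetal arrays and on 0 basal arrays. Both were highest on fetal 3. The lipid droplet gene Cidec read 5.06, 2.35 and 7.23 on this probe in fetal and 1.70, 1.69 and 2.05 in basal cells, but its brighter probe had overlapping values in the groups.

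The adipocyte marker list moved with fetal 3 in part. Its summed signal was 1866, 1653 and 4029 on the fetal and 2743, 2684 and 3120 on the basal arrays, with Fabp4 the brightest gene. Of the 9 markers, 7 had their highest fetal value on fetal 3, and 4 (Adipoq, Cfd, Retn and Pparg) their highest value of all 6 arrays there. The former was not particular to adipocyte markers. Fetal 3 also held the highest fetal value of 7 of 7 fibroblast and 7 of 8 endothelial markers. For 0 fibroblast and 0 endothelial markers was it the highest of all 6 arrays. Cfd, the adipocyte protease adipsin, read 6.44, 4.42 and 9.19 against 5.57, 6.03 and 7.13. Fabp4, a fatty acid carrier, read 8.43, 8.67 and 10.43 against 10.26, 10.25 and 10.64, so fetal 3 was near the basal level. None of the 9 was called (0 by Holm and 0 by Benjamini-Hochberg adjustment in limma, 4 at an unadjusted p under 0.05). Markers of skeletal muscle, where Car3 is also abundant, summed to 1852, 1894 and 1711 in fetal and 21827, 24168 and 21871 in basal cells. Almost all of the basal sums came from Acta1, at 852, 935 and 727 in fetal and 20642, 22957 and 20604 in basal cells. Acta1 was the only 1 of 6 tested that was called (with Mb, at -1.26, 2 by Benjamini-Hochberg adjustment). The part of adipocyte or muscle RNA in the Car3 difference was not tested.

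**Figure D3:**
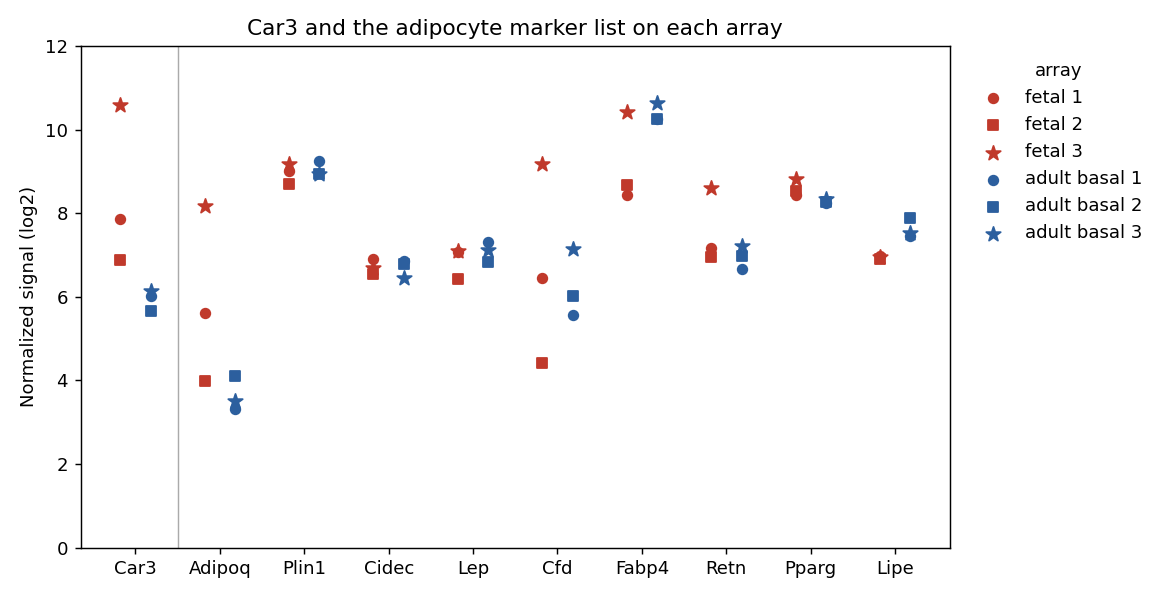
Normalized log2 signal (vertical axis) of Car3 and of the 9 adipocyte markers (horizontal axis), red for fetal and blue for adult basal arrays, with the marker shape giving the replicate number. Fetal 3 (red star) is the highest array for Car3, Adipoq, Cfd, Retn and Pparg, whereas for Plin1, Cidec, Lep, Fabp4 and Lipe it is not.

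The secreted Car6 was well above background on every basal and on no fetal array. It is the carbonic anhydrase of saliva and milk. Its probe (A_55_P2004370, chromosome 4) read 9.52, 9.83 and 8.42 in basal cells and 1.66, 3.35 and 1.91 in fetal cells. Set against the lowest signal that counted as well above background, Car6 was at least 42.2-fold higher in basal cells (measured means 9.26 ± 0.74 and 2.31 ± 0.92, SD, n = 3 each). The fitted difference of -6.95 (SE 0.52) depends on how dim signal is treated, at -4.87 with 16 added to the signals and -3.33 under another background correction. Within the slides it was -7.31 and -7.20. The Car6 call was kept in 8 of the 17 alternatives and was lost without any 1 array other than fetal replicate 2.

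Salivary gland markers, listed because Car6 is best known from saliva, did not move one way. Smr3a, Dcpp1 and Dcpp2 were called higher in fetal cells, though all 3 passed the filter on low signal only through the fetal arrays. Also among the 5 tested, Amy1 (-1.19) and Bpifa2 (-0.43) had higher basal values without overlap and were not called. Both passed the filter on low signal only through the basal arrays, so calls among the 5 say nothing further. With Benjamini-Hochberg adjustment 4 were called, Amy1 among them, and all 5 had an unadjusted p under 0.05. The list summed to 9537, 10398 and 10039 in fetal and 274, 468 and 265 in basal cells, with Dcpp1 the brightest. The genes most like Car6 over the 6 arrays were Glycam1 (distance 0.57), a mucin-like protein of milk and lymph node vessels, the unnamed locus Gm17019 (0.59) and Chrdl2 (0.59), an inhibitor of bone morphogenetic proteins. Glycam1 read 8.27, 9.04 and 7.47 in basal cells. On the fetal arrays none of the 3 was well above background, so their likeness to Car6 rests on the basal values and on dim signal.

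Car8 (chromosome 4) has lost the zinc site and the enzyme activity, and binds the inositol trisphosphate receptor Itpr1. Its brighter probe A_51_P392005 read 7.15, 7.17 and 6.95 in fetal and 5.22, 3.51 and 5.83 in basal cells, where basal 2 was not well above background. The groups were apart, but the basal arrays were spread widely (4.85 ± 1.20 against 7.09 ± 0.13, SD, n = 3 each). The difference was 2.24 (SE 0.53), 4.73-fold, 1.63 within the first slide, 3.55 within the second and 1.59 without adult basal replicate 2. The second probe, A_66_P126640, read 6.23, 6.55 and 5.99 against 4.22, 3.98 and 4.44, a difference of 2.04 (SE 0.18), and was likewise well above background on only 2 basal arrays. Both probes were higher on every fetal array. Of the 3 inositol trisphosphate receptors, calcium channels of the endoplasmic reticulum, 0 were called, with differences of 0.10 for Itpr1, 0.36 for Itpr2 and 0.36 for Itpr3 (0 also by Benjamini-Hochberg adjustment in limma, and 1 at an unadjusted p under 0.05).

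Of the other 7 carbonic anhydrase genes, 4 were tested, and Car15, a membrane-anchored enzyme of the kidney, differed most. It read 9.29, 9.72 and 9.22 in fetal and 7.98, 7.69 and 7.77 in basal cells, with no overlap, and differed by 1.60 (SE 0.16), 3.03-fold, without meeting the call rule. The erythrocyte enzyme Car1 differed by -0.21 (SE 0.11), the cytosolic Car7 by -0.20 (SE 0.10) and the acatalytic Car11 by 0.02. Basal values of Car1 and Car7 were slightly higher, without overlap, and those of Car11 overlapped the fetal ones. For Car5a and Car10 no array was well above background, and for the mitochondrial Car5b 1 basal array was.

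Genes that work beside the carbonic anhydrases were read from lists, 1 probe per gene, against 11.1% called and a median difference of -0.03 over all probes. Of 15 tested bicarbonate and anion transporters of the Slc4 and Slc26 families, 2 were called, with a median difference of 0.14. Slc4a11, a membrane transporter of basolateral epithelial surfaces, was higher in basal cells by 3.82 (fetal minus basal -3.82, SE 0.21, adjusted p = 0.00525). The sulfate transporter Slc26a2 was higher in fetal cells (1.60, SE 0.12, adjusted p = 0.0376). The Slc4a11 call was lost without fetal replicate 1 (adjusted p = 0.0779) or fetal replicate 2 (0.0734), and that of Slc26a2 without any 1 of the 6 arrays (0.146 to 0.56). With slide (0.219) or replicate number (0.525) as a block, the Slc26a2 call was lost too. The chloride and bicarbonate exchanger Slc4a2 (-0.12) and the sodium bicarbonate cotransporter Slc4a4 (0.32) did not pass, and neither did Slc26a9 (2.80, adjusted p = 0.1). Slc26a9 passed the filter on low signal only through the fetal arrays, where it is bright, so a call of it would say nothing further.

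Of 12 tested proton and lactate transporters, 2 were called, both higher in basal cells, with a median difference of -0.33. Slc16a3, the lactate exporter MCT4, had 12.00 ± 0.13 in fetal and 14.92 ± 0.13 in basal cells (SD, n = 3 each). The difference was -2.93 (SE 0.12, adjusted p = 0.000699), and the call was kept in all 17 alternatives. Emb, a chaperone that carries lactate transporters to the membrane, differed by -2.27 (SE 0.14, adjusted p = 0.0123), a call lost when any 1 array other than fetal replicate 3 was left out (0.0651 to 0.196). It was also lost with slide (0.0526) or replicate number (0.177) as a block. Bsg, a relative of Emb (-1.62, adjusted p = 0.0686), and the lactate importer Slc16a1 (-0.01) did not pass.

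HIF targets other than Car9 were mostly higher in the adult basal cells. Of 24 tested, 13 were called and all 13 were higher in basal cells, where 5.18% of all probes were called in that direction. In 22 of the 24 the basal mean was higher, and the median difference was -1.91. The largest differences were those of P4ha2, a subunit of the collagen prolyl hydroxylase (-5.53, SE 0.12), the peptide hormone Adm (-5.34, SE 0.16), the oxidoreductase Ero1a of the endoplasmic reticulum (-4.91, SE 0.18) and the vascular growth factor Vegfa (-4.17, SE 0.15). Adm read 10.18, 9.88 and 10.05 in fetal and 15.08, 15.57 and 15.47 in basal cells, so the groups lay far apart. Vegfa read 12.51, 12.18 and 12.41 against 16.30, 16.65 and 16.67, also without overlap.

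The other called targets were the glycolytic regulator Pfkfb3 (-3.83), P4ha1 (-3.53), the glucose transporter Slc2a1 (-3.35), the stress-induced Ndrg1 (-3.29), the oxygen sensors Egln1 (-2.67) and Egln3 (-2.50), the mitophagy genes Bnip3 (-2.55) and Bnip3l (-1.94), and the mitochondrial Higd1a (-1.61). Adjusted p-values of the 13 ran from 7.84e-06 to 0.0143. Glycolytic enzymes were not called, with Hk2 at -1.89 (adjusted p = 0.485), Aldoa at -1.20 (adjusted p = 0.0514), Pgk1 at -0.71, Tpi1 at -0.60, Ldha at -0.45 and Eno1 at -0.44. Pdk1 (1.02, adjusted p = 0.213) and Pfkfb4 (0.79) had higher means in fetal cells and did not pass. Between 9 and 11 targets were called when 1 array was left out, and 9 of the 13 kept their call in all 17 alternatives. The other 4, Bnip3l, Egln1, P4ha1 and Higd1a, each lost it without at least 2 of the 6 arrays taken singly, fetal replicate 1 among them (adjusted p = 0.216, 0.0804, 0.162 and 0.269). With slide as a block, Bnip3l (0.0516) and Higd1a (0.0848) lost it. With replicate number as a block, Bnip3l (0.0847), Egln1 (0.0583) and Higd1a (0.313) did.

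**Figure D4:**
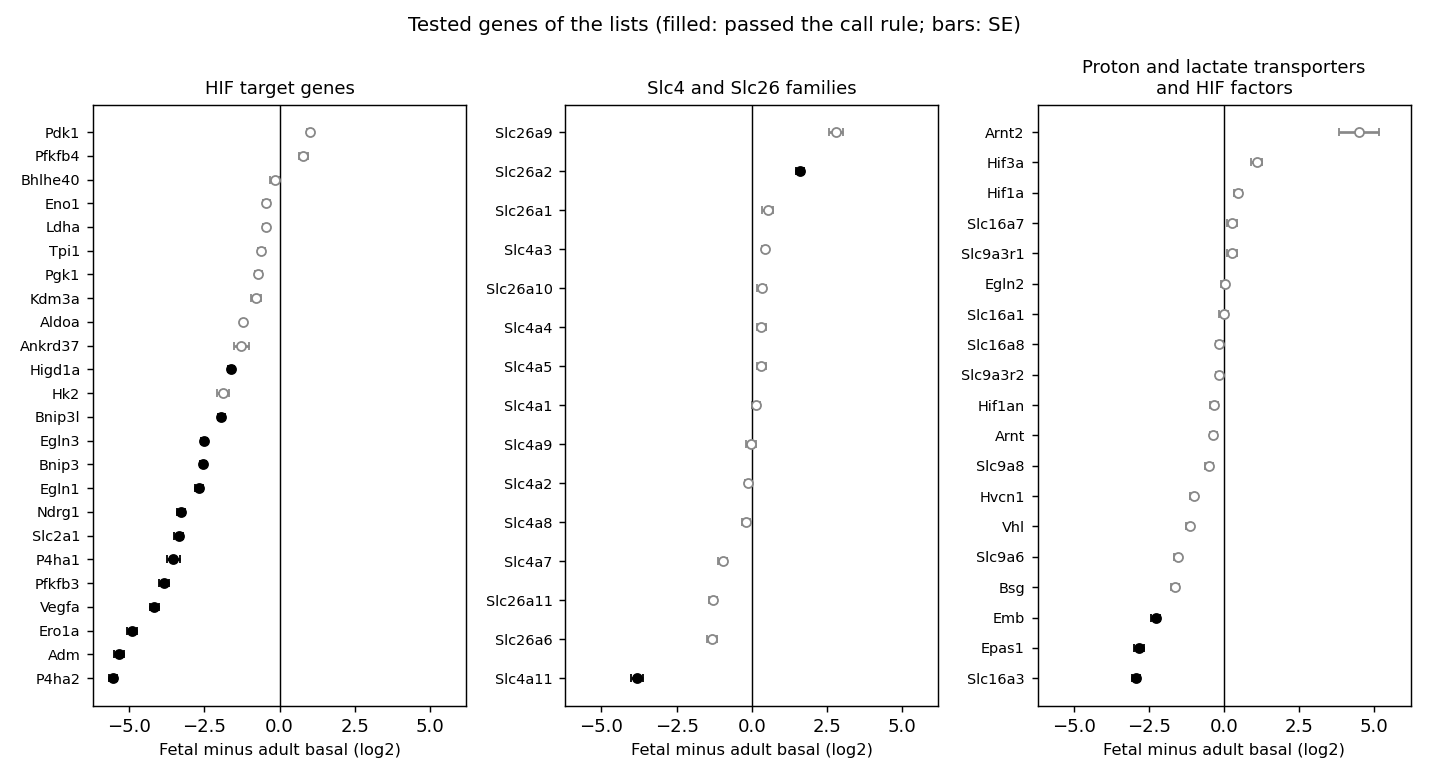
Difference in log2 signal, fetal minus adult basal (horizontal axis), with its SE as a bar, for the tested genes (vertical axis) of the HIF targets (left), the Slc4 and Slc26 transporters (middle), and the proton and lactate transporters together with the HIF factors (right). Filled points met the call rule: 13 of 24 HIF targets, all on the basal side, 2 of 15 in the middle panel and, on the right, Slc16a3, Emb and Epas1.

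Of the HIF subunits and their regulators, 1 of 8 was called. Epas1, the subunit HIF-2 alpha, was higher in basal cells (-2.81, SE 0.16, adjusted p = 0.00854). However, the call was lost without any 1 fetal array (0.094 to 0.148) or without adult basal replicate 3 (0.0605). With slide (0.0528) or replicate number (0.0734) as a block, it was lost too. Hif1a (0.46), Hif3a (1.09), the partner Arnt (-0.36), Vhl (-1.14), the asparagine hydroxylase Hif1an (-0.32) and Egln2 (0.03) did not pass. Arnt2 had the widest difference (4.49, SE 0.67) but was well above background on only 2 basal arrays, and was not called. It passed the filter on low signal only through the fetal arrays, so a call of it would say nothing further. The median difference over the 8 genes was -0.15. The genes nearest to Car9 over the 6 arrays, a comparison chosen after its values were seen, were the amino acid transporter Slc7a3 (distance 0.10), the endothelial receptor Heg1 (0.13) and the secreted protease inhibitor Slpi (0.15). Slc7a3 read 8.31, 8.16 and 8.09 in fetal and 13.19, 13.67 and 13.34 in basal cells.

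Markers of other cells that use carbonic anhydrases were compared as well. Erythroid cells are rich in Car2 and Car1, and their marker list holds Car1 itself. It summed to 2407, 3012 and 2772 in fetal and 2245, 3135 and 2160 in basal cells, with Slc4a1 the brightest, and without Car1 to 1712, 2376 and 2088 against 1466, 2283 and 1452. None of the 4 tested, Car1 included, was called (0 also by Benjamini-Hochberg adjustment in limma and 1 at an unadjusted p under 0.05). That 1 was the embryonic globin Hbb-y, with a difference of 0.72 (SE 0.15) and fetal values above all basal ones. Osteoclast markers, for Car2, summed to 10123, 11295 and 10471 against 7986, 8708 and 7790, with Acp5 the brightest and Ctsk the only 1 of 5 tested that was called, higher in basal cells. With Benjamini-Hochberg adjustment Dcstamp (-1.82) was called too, and 4 had an unadjusted p under 0.05. Ctsk and Dcstamp passed the filter on low signal only through the basal arrays, so these calls say nothing further. Acp5 itself had a difference of 0.78, with fetal values above all basal ones, and was not called. Endothelial markers, for Car4, summed to 12288, 10854 and 12643 against 13126, 13965 and 11529, almost all from Kdr. None of the 6 tested was called in limma with Holm adjustment, though 4 were by Benjamini-Hochberg adjustment and 4 had an unadjusted p under 0.05. These were Cdh5 (-2.70), Esam (-3.77), Emcn (-1.79) and Cldn5 (-1.40), all with higher basal values that did not overlap the fetal ones. Cdh5, Esam and Emcn passed the filter on low signal only through the basal arrays, so their calls say nothing further. Esam was well above background on only 1 fetal array. Leukocyte markers summed to 34363, 28670 and 26139 against 24412, 33665 and 27675, with Itgam the brightest and 0 of 7 called (2 by Benjamini-Hochberg adjustment and 2 at an unadjusted p under 0.05, Cd52 at -4.39 and Lyz2 at -1.76, both with higher basal values). Cd52 and Lyz2 were likewise let through the filter on low signal by the basal arrays alone. Fibroblast markers summed to 5435, 5721 and 7032 against 15556, 17907 and 25957, with Dcn the brightest and the only 1 of 6 tested that was called, higher in basal cells. With Benjamini-Hochberg adjustment Lum (-1.05) was called too, and 5 had an unadjusted p under 0.05. Lum, Col1a2 (-0.90), Col3a1 (-0.89) and Pdgfra (-0.37) all had higher basal values without overlap. The part of these cells in the carbonic anhydrase differences was not tested.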

How the data were processed

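One-color arrays were used, 3 of E18.5 fetal and 3 of adult basal mammary cells, grouped by their labels. The authors deposited spot intensity values, the processed signal of Agilent Feature Extraction 11.0.1.1, background-subtracted within each array and not normalized between arrays. A table of log2 values that the authors deposited, quantile normalized in GeneSpring, served as an alternative.

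Control spots and outlier spots (104 to 326 on an array) were removed, log2 signals averaged per probe and the arrays quantile normalized. No spot was saturated. Of 55681 probes, 27235 (48.9%) matched a gene by unversioned accession in the RefSeq table of GRCm38.p6; the array design names mm9, so array coordinates were not used. Probes in the lowest of 3 k-means clusters in both populations (log2 of a population's mean linear signal below 5.95) were removed, leaving 20448. Differences were fitted with limma 3.58.1 in R 4.3.3 (lmFit, eBayes, no covariates, 2-sided) and Holm-adjusted. A gene was read by its brightest tested probe. For the values and summed signals of the marker lists, it was read by its brightest probe, tested or not. A fold against a group not well above background is a bound: per array, the higher of the probe's own signal and the lowest signal well above background. The fit was tested on simulated data. Tables and plots used Python 3.11.15, pandas 2.3.3, numpy 2.4.6 and matplotlib 3.10.9.

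The genes and lists were chosen with earlier results of these data known. Genes named are all carbonic anhydrases, the members of the 5 pathway lists and of the marker lists, and the sort antigens Epcam and Itga6. Also named are the 3 nearest profiles of the members with the largest difference each way (Car3 and Car6). The 3 nearest profiles of Car9 were added after its values were seen. Alternatives covered normalization, background, offset, filter, probes, adjustment, variance, blocks, probe choice and each array left out. Some single genes of the lists are counted in them but not reported here by name or plotted.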

Additional observations from a re-analysis of the deposited data

How the results depend on the processing

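Of the 9 genes, each kept the sign of its difference in every alternative in which its brightest probe was tested, except Car4 (16 of 17, range -0.22 to 0.14). Car8 was not tested with normexp background correction or with an offset of 16, and Car2 not with normexp. Values outside the spread between replicates were 1.42 for Car2 with the offset and, for Car6, -4.87 with the offset and -3.33 with normexp. Over all probes, 2270 calls became 2655 with normexp, 2936 with the offset, 1182 with no filter, 2021 with the filter on well above background, 2102 with all probes, 6133 with Benjamini-Hochberg adjustment, 3356 with trended robust variance, 1541 with slide as a block and between 948 and 1949 with 1 array left out. Of the carbonic anhydrases, 2 calls became 1 with no filter, with a filter on well above background and with all probes, 7 with Benjamini-Hochberg adjustment (5 higher in fetal cells, where the reported calls had 0), 3 with trended variance (2 of them higher in fetal cells), and 1 to 2 with 1 array left out. They became 3 with normexp and 3 with the offset, each with 1 higher in fetal cells. Without adult basal replicate 1, 1 of the 2 calls was higher in fetal cells. The 2 calls among the Slc4 and Slc26 transporters became 0 with no filter, 1 with the filter on well above background or all probes, 5 with Benjamini-Hochberg adjustment, 4 with trended robust variance, 1 with slide as a block and 0 to 2 with 1 array left out. Slc26a9, let through the filter on low signal by the fetal arrays alone, was among the 5 and among the 4. The 2 among the proton and lactate transporters became 4 with the offset, 1 with no filter, 5 with Benjamini-Hochberg adjustment, 4 with trended variance, 1 with slide as a block and 1 to 2 with 1 array left out. The 1 among HIF factors became 2 with normexp or the offset, 0 with no filter or slide as a block, 4 with Benjamini-Hochberg adjustment and 0 to 2 with 1 array left out. Arnt2, let through the filter on low signal by the fetal arrays alone, was the call added by normexp and by the offset, and was among the 4. HIF targets gave 9 to 17 calls throughout. The causes of these shifts were not tested, except that leaving out an array leaves fewer samples.

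The replicate numbers did not pair the samples: deviations of same-numbered arrays correlated at -0.03, 0.09 and 0.05, other pairs at -0.13 to 0.12. With the replicate number as a block, calls were 1302 over all probes, 2 of the carbonic anhydrases, 1 of the Slc4 and Slc26 transporters, 1 of the proton and lactate transporters, 10 HIF targets, 0 HIF factors and 0 inositol trisphosphate receptors. The number of arrays, 3 a group, limits precision, and dim probes (Car6 in fetal cells, Car8 in basal cells) have only a bound or a wide spread.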
